A study of Mus musculus with 2 samples.

Results

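Binding of Rfx6 in a β cell line was examined at 8 genes of pancreatic progenitors and of alternative fates. The genes are Neurog3 (Ngn3), Pax4, Sox9, Ptf1a, Hhex, Prox1, Mnx1 and Myt1. They are 8 of the 22350 protein-coding genes on the 20 chromosomes of the peak list (GENCODE M1 on mm9). A peak was counted for a gene when its summit, the position of highest signal, lay in the gene or within 150 kb of it. This rule gave 41 of the 23308 peaks. Each of the 41 was counted for 1 of the 8 genes.

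The treated cells were Min6b1, an insulin-secreting mouse β cell line, transfected with 24 µg of a plasmid for 3HA-Rfx6 under a CMV promoter, grown in 25 mM glucose and taken for anti-HA (12CA5) ChIP-seq 2 days later. Cells labelled Min6b1 gave the anti-HA control. Its cell type label does not mention the transfection but its growth protocol does, so whether the control cells, against which fold enrichment is measured, were transfected could not be settled. There was 1 library of each, so no value has a replicate error, and the bound protein was an introduced, tagged Rfx6. The HA-Rfx6 library held 49443917 reads, of which 33949757 remained with 1 read allowed per position, and the control held 16911298, of which 3567375 remained.

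Rfx6 belongs to the RFX family, whose winged-helix DNA binding domain contacts the X-box, a pair of inverted GTTGCC-like arms a few bases apart. In the embryonic pancreas Rfx6 acts downstream of Ngn3, the bHLH factor that commits progenitors to the endocrine fate. Sox9, Ptf1a, Hhex, Prox1 and Mnx1 are made in the pancreatic epithelium before or beside endocrine commitment, whereas Myt1 and Pax4 are switched on in endocrine precursors. Ptf1a later drives the acinar fate, Sox9 marks duct cells, Hhex is kept in δ cells and Mnx1 in β cells.

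The sequences under 9 summits show how the X-box stood in peaks described in the text. They are the 3 peaks with 11 of 12 matching bases, the 4 with a spaced X-box (GTNNCC and GGNNAC, 1 of them among the 3), the peak inside Ptf1a, the single peak of Sox9 and the peak of Prox1 with the most reads. Each line gives 200 bases of the plus strand of mm9 around a summit, 5′ to 3′. Capitals mark the pair of arms, 0 to 3 bases apart, that was closest to GTTGCC followed by GGCAAC.
Myt1, 4.14 kb before its start, chr2:181493793-181493992: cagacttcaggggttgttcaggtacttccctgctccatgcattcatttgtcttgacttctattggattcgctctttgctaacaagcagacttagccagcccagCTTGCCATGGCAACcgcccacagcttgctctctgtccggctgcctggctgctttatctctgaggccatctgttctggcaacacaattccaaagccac
Myt1 window, 3.96 kb before the start of Sox18, chr2:181410207-181410406: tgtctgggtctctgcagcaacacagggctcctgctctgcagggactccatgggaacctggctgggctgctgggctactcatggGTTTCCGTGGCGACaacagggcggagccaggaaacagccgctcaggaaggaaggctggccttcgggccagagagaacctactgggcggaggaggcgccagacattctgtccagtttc
Myt1 window, 1.12 kb before the start of Oprl1, chr2:181448501-181448700: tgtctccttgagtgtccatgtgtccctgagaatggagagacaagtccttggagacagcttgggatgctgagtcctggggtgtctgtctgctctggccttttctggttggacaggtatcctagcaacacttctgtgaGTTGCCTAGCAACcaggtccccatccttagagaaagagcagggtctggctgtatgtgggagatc
Ptf1a, 25.6 kb before its start, chr2:19341593-19341792: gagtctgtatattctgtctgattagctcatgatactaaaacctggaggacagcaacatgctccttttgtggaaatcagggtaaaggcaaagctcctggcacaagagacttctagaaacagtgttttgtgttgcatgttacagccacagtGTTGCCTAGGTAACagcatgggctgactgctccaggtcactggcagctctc
Ptf1a, coding exon 1, chr2:19368093-19368292: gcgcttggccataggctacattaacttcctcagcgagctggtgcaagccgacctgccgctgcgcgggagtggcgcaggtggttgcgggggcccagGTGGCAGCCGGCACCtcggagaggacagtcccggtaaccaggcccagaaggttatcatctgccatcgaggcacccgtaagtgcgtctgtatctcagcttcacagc
Neurog3, 31.5 kb before its start, chr10:61564269-61564468: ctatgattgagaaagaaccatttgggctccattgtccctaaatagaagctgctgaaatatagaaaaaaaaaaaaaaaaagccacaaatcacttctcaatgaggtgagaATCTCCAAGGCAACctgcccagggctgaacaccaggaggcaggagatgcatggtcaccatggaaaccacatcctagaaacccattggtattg
Pax4 window, intron 10 of Snd1, chr6:28523018-28523217: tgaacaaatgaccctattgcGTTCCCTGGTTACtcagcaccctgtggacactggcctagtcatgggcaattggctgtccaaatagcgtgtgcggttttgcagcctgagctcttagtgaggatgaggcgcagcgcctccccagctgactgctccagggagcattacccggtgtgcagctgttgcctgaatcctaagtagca
Sox9, 121 kb past its end, chr11:112770273-112770472: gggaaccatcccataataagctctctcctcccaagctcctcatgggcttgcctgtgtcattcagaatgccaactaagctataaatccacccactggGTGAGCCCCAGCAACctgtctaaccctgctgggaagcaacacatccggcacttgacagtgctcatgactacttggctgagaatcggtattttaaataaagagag
Prox1, 131 kb before its start, chr1:192125240-192125439: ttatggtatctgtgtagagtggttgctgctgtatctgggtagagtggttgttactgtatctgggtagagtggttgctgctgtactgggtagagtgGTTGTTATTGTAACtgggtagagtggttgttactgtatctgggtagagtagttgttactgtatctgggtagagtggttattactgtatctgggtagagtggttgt

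The 3 sequences of the Myt1 window had their capitals within 36 bp of the summit, and those of the peaks 4.14 kb before Myt1 and 3.96 kb before Sox18 lay 3 and 4 bp from it. Of the 12 bases of the 2 arms, 11 matched in CTTGCCATGGCAAC before Myt1, in GTTGCCTAGCAAC before Oprl1 and in GTTGCCTAGGTAAC before Ptf1a. In the coding exon of Ptf1a the best pair matched at 9 of 12 bases, and the best pairs of Sox9 and of the distal Prox1 peak matched at 8. The Prox1 sequence is a run of a repeated unit, described with that gene.

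All 8 genes had a peak in their windows, as did 81% of all protein-coding genes, so the presence of a peak within 150 kb does not set them apart. Within 50 kb a summit was found for 7 of 8, all but Sox9, against 67.9% of genes. Counts ran from 13 for Neurog3 and 9 for Myt1 through 5 for Ptf1a, 4 each for Hhex and Prox1, 3 for Pax4 and 2 for Mnx1 to 1 for Sox9. The median gene had 4 peaks with quartiles of 1 and 9, and the median of the 8 genes was also 4. At least as many peaks as Neurog3 were found at 12.7% of genes, and at least as many as Myt1 at 25.5%. Per 100 kb of window, Neurog3 had 4.31 peaks and Myt1 2.47, against a median of 1.22 over all genes, with 4 of the 8 above that median and 4 below.

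**Figure D1:**
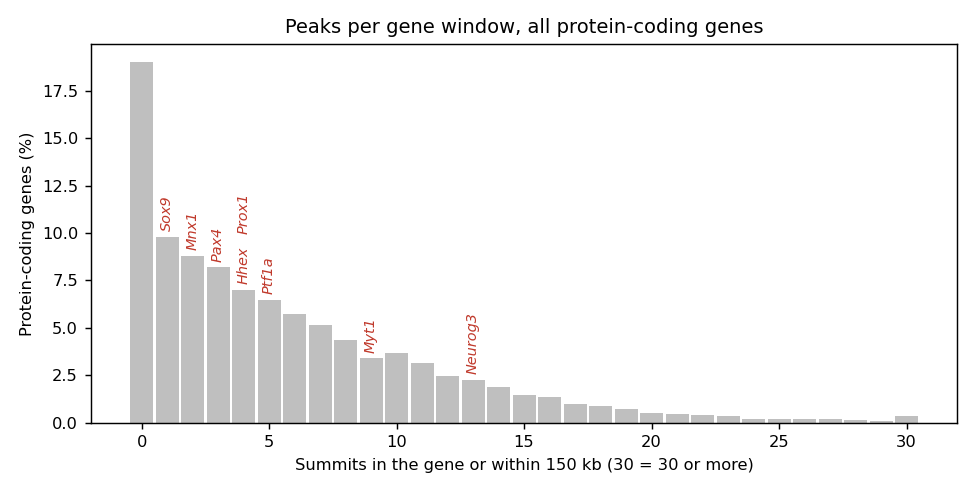
Share of the 22350 protein-coding genes (y axis, %) by the number of summits in the gene or within 150 kb (x axis, with 30 standing for 30 or more). The names mark the bars that hold the 8 factors. Neurog3 (13) and Myt1 (9) lie to the right, and the other 6 lie between 1 and 5.

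A summit near the start was found for most of the 8 genes. It lay within 10 kb of a coding start, the start of a protein-coding transcript, for 5 of 8, against 37.6% of all genes. The same 5 genes, Neurog3, Mnx1, Ptf1a, Prox1 and Myt1, had a summit within 2 kb, against 25.8%, and no other was added within 5 kb, against 31.1%. A summit fell inside the gene in 4 of 8 (Neurog3, Ptf1a, Prox1 and Mnx1), against 31.4%. Among peaks with a fold enrichment of at least 10, 3 of 8 genes had a summit within 10 kb of a start, against 18.6% of genes, 2 had one inside, against 16.2%, and all 8 had one within 150 kb, against 65.7%. In the higher-scoring 11654 peaks the numbers were 4 of 8 within 10 kb, against 23.1%, 3 inside, against 19.8%, and 8 within 150 kb, against 69.5%. With 8 genes and 1 library these shares are descriptions and were not tested.

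**Figure D2:**
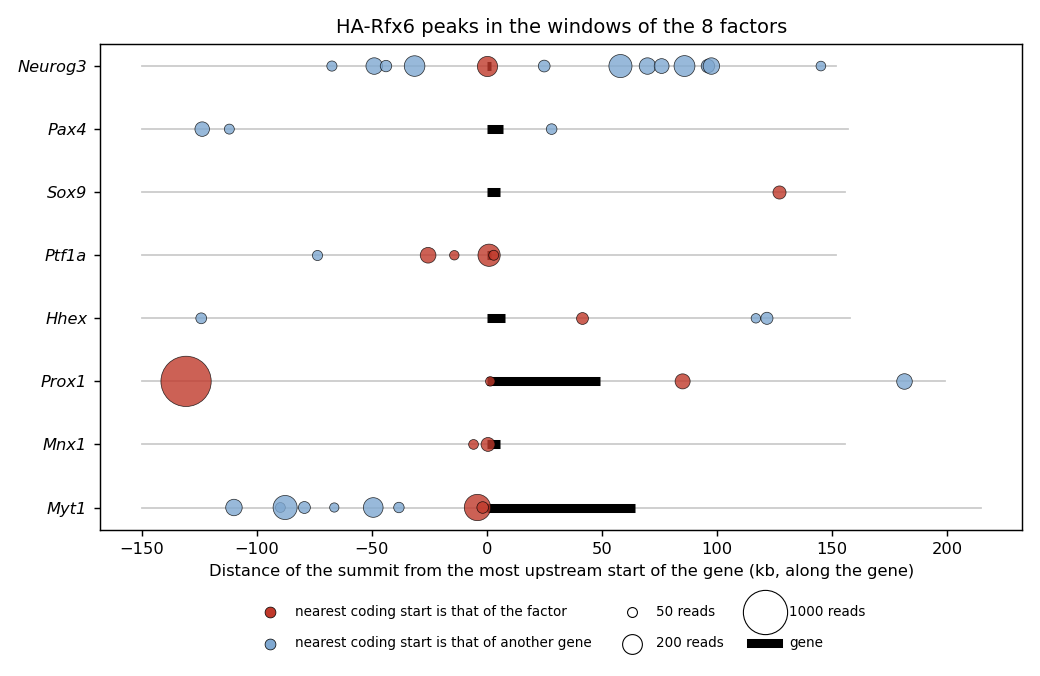
Position of the 41 summits along the windows of the 8 factors (x axis, kb from the most upstream start, in the direction of transcription). Circle area is proportional to reads, black bars are genes, and red circles are summits whose nearest coding start is that of the factor. The largest circle, of 1292 reads, lies 131 kb before Prox1, and the peaks of Myt1 all lie before its start.

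The median reads per peak was somewhat higher than in the list as a whole, with 22 of the 41 peaks (53.7%) above the median of all peaks. By gene, the median ran from 53 reads for Ptf1a to 139 for Neurog3. Over the 41 peaks together the median was 88 reads, against 73 for all peaks. The median fold enrichment over the MACS background was 10.12 and 8.54. Of the 41 peaks, 9 were among the 10.1% of peaks with the most reads, or 22.0% of them. These 9 lay in the windows of Neurog3, Myt1, Ptf1a and Prox1 alone, and 34% of all genes had a peak of that kind within 150 kb. Reads were counted over the whole peak and not divided by its width. Among the 9, Neurog3-window peaks of 3632, 2705 and 2268 bp had fold enrichments of 6.74, 9.65 and 7.81. The rest had 22.9-fold to 43.55-fold, and the one of Prox1 lay in a repeat described with that gene. The nearest coding start belonged to another gene for 27 of the 41 (65.9%), a share that was not computed over all genes. Inside another protein-coding gene lay 16 summits, beside the 4 inside one of the 8. Over the whole list 59.7% of summits lay inside a protein-coding gene. A summit within 1 kb of any coding start was found for 8 of the 41, or 19.5%, against 21%. The share nearest to their own gene differed by window. It was 1 of 13 for Neurog3, 2 of 9 for Myt1, 1 of 4 for Hhex and 0 of 3 for Pax4. For Ptf1a it was 4 of 5, for Prox1 3 of 4, for Mnx1 2 of 2 and for Sox9 1 of 1. Position alone does not attribute any of these peaks to a gene.

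**Figure D3:**
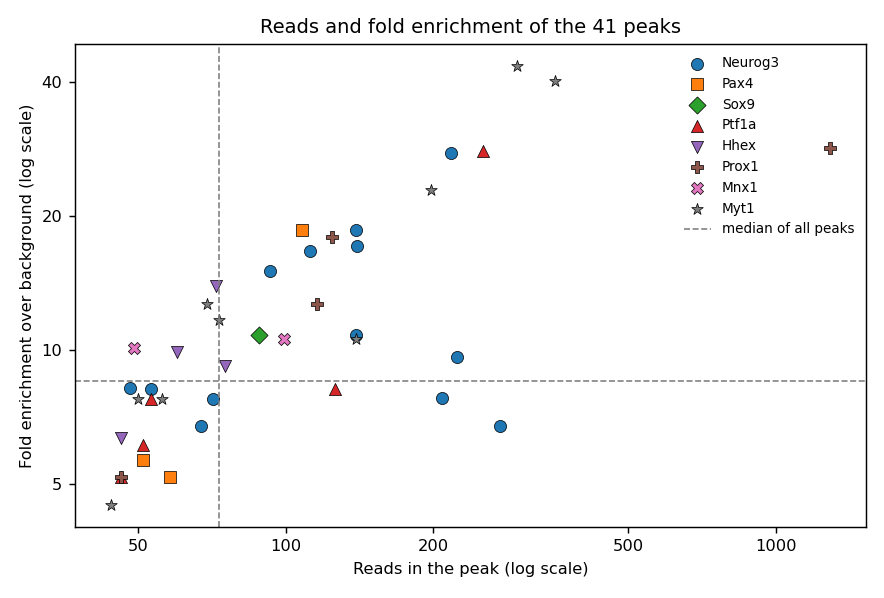
Reads (x axis, log scale) and fold enrichment over background (y axis, log scale) of the 41 peaks, 1 symbol per gene. Dashed lines are the medians of all 23308 peaks (73 reads and 8.54-fold). Peaks of Myt1 have the highest fold enrichments (43.55 and 40.25), and the Prox1 peak of 1292 reads lies far to the right at 28.4-fold.

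Neurog3, at chr10:61595838-61597511 on the plus strand, had the most peaks of the 8 and the summit closest to a start. That summit lay 37 bp into the gene, in the untranslated part of exon 1, and also in intron 2 of a transcript of 2010107G23Rik. Only 2.21% of genes had a summit as near to a coding start. The peak, chr10:61595271-61597538, held 208 reads (95% Poisson interval 181 to 238, counting error only) and covered the whole gene. Complete cover by 1 peak was found for 55 protein-coding genes, 0.246%, and for 25 of those of at least 1 kb, 0.122%. These shares depend on gene length: Neurog3 is 1.67 kb long, the median gene 15.4 kb, and the widest peak of the list was 7428 bp. Most genes could therefore not be covered, and no share among genes of like length was computed. Its read number was reached by 7.24% of all peaks, but its fold enrichment of 7.81 was below the median and was reached by 56.9%. The best pair of arms around this summit, CTTGCATGCAGC, matched at 8 of 12 bases.

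The peak with the highest fold enrichment in the Neurog3 window lay 31.5 kb before the gene. It held 217 reads (189 to 248) at 27.8-fold, a fold enrichment reached by 4.17% of peaks, and its read interval overlapped that of the peak at the start. The nearest coding start was that of 2010107G23Rik, 8.40 kb away. Besides the pair in capitals above, this peak held a spaced X-box, GTCACCATGGAAAC, 60 bp from the summit. Another 3 peaks lay further upstream, with 140 reads 49.0 kb before the start, 67 reads 43.9 kb before it and 53 reads 67.4 kb before it.

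Downstream of Neurog3, 6 of the 8 peaks lay in Tspan15, which encodes a tetraspanin membrane protein. The peak with the most reads, 273 (242 to 307), was 58.0 kb past the start of Neurog3 and 3632 bp wide, with a fold enrichment of 6.74. The next held 223 reads at 9.65-fold. The other 4 in Tspan15 held 93 to 139 reads at 10.8-fold to 18.6-fold, 1 of them 624 bp from the start of Tspan15. The last peaks of the window were 1 of 71 reads 24.9 kb past the Neurog3 start and 1 of 48 reads in intron 18 of Hk1. Of the 13 peaks, only the one at the start had Neurog3 as its nearest coding start.

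Myt1, which encodes a zinc finger factor of endocrine precursors, lies at chr2:181498037-181562502 on the plus strand. Its 9 peaks were all upstream, and no summit fell in its 64.5 kb, whereas 48.8% of genes of 50 to 80 kb had one. The peak nearest to the gene, 1.87 kb before the start, was also the last of chromosome 2 in the list. It ended 251 kb before the end of the chromosome, a distance that ran from 50.8 to 2829 kb over the 20 chromosomes.

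The 2 peaks next to Myt1 were the ones for which its start was the nearest. The one 4.14 kb before the start, chr2:181493197-181495375, held 354 reads (318 to 393) at 40.25-fold. Its read number was reached by 1.49% of all peaks and its fold enrichment by 1.04%. The one 1.87 kb before the start held 69 reads at 12.7-fold, so the read intervals of the 2 peaks did not overlap.

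The other 7 peaks of the Myt1 window lay nearer to other genes. The highest fold enrichment among the 41 peaks, 43.55, was that of the peak 3.96 kb before Sox18, an endothelial SOX factor, and 87.7 kb before Myt1. It held 296 reads (263 to 332) and the spaced X-box GTTTCCGTGGCGAC. The peak 1.12 kb before Oprl1, which encodes the nociceptin receptor, held 198 reads (171 to 228) at 22.9-fold. A peak in intron 19 of Prpf6 held 139 reads at 10.6-fold. The remaining 4 held 44 to 73 reads at 4.49-fold to 11.7-fold.

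Ptf1a, a bHLH factor of multipotent progenitors and acinar cells, lies at chr2:19367290-19369128 on the plus strand. Its highest peak, chr2:19366271-19368714, had its summit 903 bp into the gene, in coding exon 1, and covered 77% of the gene. An exon of the noncoding gene Gm13336 overlapped the same position. The peak held 253 reads (223 to 286) at 28.0-fold, values reached by 4.32% and 4.06% of all peaks. A summit in a coding exon was found for 7.12% of all peaks and for 3 of the 41, those in Ptf1a, in Mnx1 and in Gcc1 in the Pax4 window.

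A further 4 peaks surrounded Ptf1a. The one 25.6 kb before the start held 126 reads (105 to 150) at 8.18-fold, below the median fold enrichment, although its GTTGCCTAGGTAAC was 1 of the 3 best X-box pairs of the 41 peaks. Those 14.2 kb before and 2.92 kb past the start held 46 and 51 reads at 5.18-fold and 6.12-fold. The last, of 53 reads, lay 73.8 kb before Ptf1a and 260 bp past the start of Msrb2, a methionine sulfoxide reductase gene.

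Prox1, a homeodomain factor of progenitors and liver precursors, lies at chr1:191945660-191994559 on the minus strand with no other protein-coding gene in its window. The peak with the most reads of the 41, chr1:192123419-192128693, was 131 kb before its start and in no annotated gene. It held 1292 reads (1222 to 1364) at 28.4-fold over 5275 bp, and its rank by reads was 5 of 23308. By fold enrichment its rank was 897. A width of at least 5 kb was found for 8 peaks, 0.0343%. Its FDR of 25.29% was the largest of the list and was shared by 77 peaks that had the same score, 3100.

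The sequence under this Prox1 peak was a tandem repeat of 25 bp units. The unit TGTATCTGGGTAGAGTGGTTGTTAC occurred in 76 exact copies, and the repeat took up chr1:192123833-192128219, or 4387 bp of the 5275. Counted on both strands, GTTGTT occurred 123 times in the peak, GTTGCT 44 times and GTTGCC 1 time. In the 200 bp around the summit 80% of bases equalled the base at a fixed shift of 10 to 60 bp, against a median of 34.2% over all peaks, and a value of at least 80% was found for 218 peaks, 0.935%. Reads placed in a repeat may come from other copies, and how the mapping of the authors treated reads with several positions was not given in the sources used here. The part of this in the read number was not tested.

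The remaining 3 peaks of Prox1 were of ordinary size. One of 46 reads at 5.18-fold lay 1.42 kb past the start, in intron 1. Another, of 116 reads (95.9 to 139) at 12.7-fold, lay 36.1 kb past the end of the gene. The most distant, of 124 reads (103 to 148) at 18.0-fold, lay 132 kb past the end and nearest to the start of Smyd2, a lysine methyltransferase gene.

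Mnx1, a homeodomain factor of the early pancreatic bud and of β cells, lies at chr5:29799578-29805059 on the minus strand and had 2 peaks, both nearest to its own start. One summit lay 389 bp from the nearest of its coding starts, in coding exon 1, with 99 reads (80.5 to 121) at 10.6-fold. The 200 bp around it were 72.5% G and C, the highest share of the 41, against a median of 54% over all peaks. The other, of 49 reads (36.3 to 64.8) at 10.1-fold, lay 5.85 kb before the start and held GTTGTCTGGGAAC, which matched at 10 of 12 bases and lay 13 bp from the summit. The read intervals of both peaks did not overlap. However, the peaks were 1942 and 1035 bp wide, and their reads per kb were close, at 51.0 and 47.3.

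Pax4, Hhex and Sox9 had no summit within 10 kb of a coding start. Pax4, a paired-homeodomain factor that favours the β and δ fates over the α fate, lies at chr6:28392334-28399353 on the minus strand. None of its 3 peaks had Pax4 as the nearest start. The one closest to it, 28.1 kb past the start, lay in coding exon 2 of Gcc1, a gene for a Golgi protein, and held 58 reads (44.0 to 75) at 5.18-fold. The other 2 lay 112 and 124 kb before Pax4 in intron 10 of Snd1, with 51 and 108 reads at 5.65-fold and 18.6-fold. The latter held the spaced X-box GTTCCCTGGTTAC, printed above.

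Hhex, a homeodomain factor of foregut endoderm and δ cells, lies at chr19:37507377-37515218 on the plus strand. Of its 4 peaks, 1 had Hhex as its nearest start, 33.6 kb past the end of the gene, with 72 reads (56.3 to 90.7) at 13.9-fold. The other 3 lay in intron 10 of Ide, 675 bp before Exoc6 and in intron 1 of Exoc6, with 60, 46 and 75 reads. Sox9, the SOX factor of progenitors and ducts, lies at chr11:112643538-112649074 on the plus strand and had 1 peak, chr11:112769796-112771003, 121 kb past its end. This peak held 88 reads (70.6 to 108) at 10.8-fold. A summit as near to a coding start as that of Sox9, 124 kb, was found for 77.6% of genes, and its window held no other protein-coding gene.

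In each window around the summit, and over the whole peak, the share with a spaced X-box was lower in the 41 peaks than in all peaks. These shares rest on 1 to 5 of the 41 peaks and were not tested. A spaced X-box, GTNNCC and GGNNAC with 0 to 3 bases between them, lay within the 200 bp of 4 of the 41 summits (9.76%), against 10.6% of all peaks. In windows shifted by 1 kb to the right it lay in 2 of the 41 (4.88%), against 1.25% for all peaks. In the 100 bp around the summit it was found in 1 of 41 (2.44%), against 7.62% of all peaks. Over the whole peak it was found in 5 of 41 (12.2%), against 19.7%. The motif reads the same on both strands. The 4 were the peaks 31.5 kb before Neurog3, 25.6 kb before Ptf1a, near Sox18 and in Snd1. The arm GTTGCC, searched on both strands and able to be part of a pair, was found in 12 of 41 (29.3%) against 26.8%, and 1 kb to the right in 6 of 41 (14.6%) against 6.39%. A strict form of the X-box (GTNRCC and RGYAAC, with R for A or G and Y for C or T) was found in 2 of 41 (4.88%) against 6.42%. A relaxed form (RYYNYY and RRNRAC, 1 to 3 bases apart) was found in 20 (48.8%) against 45.9%. These forms were not nested. The peak near Oprl1 had the strict but not the spaced X-box, and the one in Snd1 the spaced but not the relaxed. A pair with at least 9 of 12 matching bases was found in 18 of 41 (43.9%) against 58.7%, one with at least 10 in 7 (17.1%) against 19.8%, and one with at least 11 in 3 (7.32%) against 5.6%. None of the 3 summits inside Neurog3, Ptf1a and Mnx1 that lay within 1 kb of a start had a spaced X-box. A match is a description of these letters, and its absence says only that they are not in the window.

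**Figure D4:**
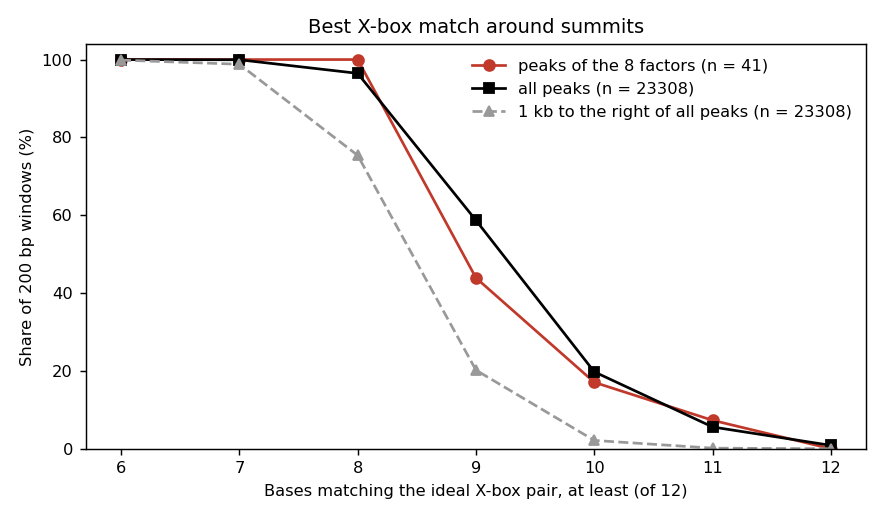
Share of 200 bp windows (y axis, %) whose best pair of arms matched the ideal X-box at the given number of bases or more (x axis, of 12). Red circles are the 41 peaks of the 8 factors, black squares all peaks and grey triangles windows 1 kb to the right of all peaks. At 9 bases the 41 peaks (43.9%) lie between all peaks (58.7%) and the shifted windows (20.2%), and from 10 bases on they lie close to all peaks.

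Motifs of other factors were counted in the 200 bp around the 41 summits on both strands. The E-box CAGATG, of the kind bound by Neurog3 and Neurod1, lay in 9 of 41 windows (22.0%), against 16.1% of all peaks. In windows 1 kb to the right it lay in 5 of 41 (12.2%), against 15.6% for all summits. The 9 included the summit in coding exon 1 of Ptf1a and the one 4.14 kb before Myt1, and 4 of them were in the Neurog3 window. In the 100 bp around the summit the E-box lay in 3 of 41 (7.32%), against 7.71% of all peaks. The homeodomain motif TAATTA lay in 2 of 41 (4.88%), against 2.02% of all peaks. In the shifted windows it lay in 3 of 41 (7.32%), against 4.53%. The forkhead motif TGTTTAC lay in 1 of 41 (2.44%) at the summits and 1 of 41 in the shifted windows, against 2.45% and 2.57%. Over all peaks, the shifted windows had a median of 48% G and C, against 54% at the summits. Both summit windows with TAATTA, 2.92 kb past the start of Ptf1a and in Tspan15, lacked the spaced X-box.

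Other factors of the same network were read in the same way. Of 17 such genes, 14 (82.4%) had a peak within 150 kb, against 81% of all protein-coding genes, and Irx1, Pou3f4 and Isl1 had none. Among factors of pancreatic progenitors, Hes1 and Pdx1 had 10 peaks each, Onecut1 6 and Nkx6-1 3. Among those of endocrine differentiation, Neurod1 and St18 had 5, Nkx2-2 3, and Insm1 and Runx1t1 2. Acinar factors had 10 (Rbpjl and Gata4), 8 (Nr5a2) and 4 (Bhlha15), and Irx2, of α cells, had 3.

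A summit within 10 kb of a coding start was found for 11 of the 17 and 5 of the 8, against 37.6% of all genes. More peaks than the median gene, at least 5, were found for 8 of the 17 (47.1%) and 3 of the 8, against 47.2% of all genes. Of the 81 peaks of the 17 genes, 7 (8.64%) were among the 10% with the most reads, against 22.0% of the 41. Reads were not corrected for peak width. A fold enrichment above the median of all peaks was found for 36 of the 81 (44.4%) and 24 of the 41 (58.5%). The highest of the 81 held 331 reads at 37.2-fold, 90.8 kb past the start of Onecut1 and 135 bp from that of BC031353, its nearest. This is below the 354 reads before Myt1. The summit closest to a start among the 17 lay 51 bp from that of Runx1t1 with 114 reads, compared with 37 bp and 208 reads for Neurog3. The nearest coding start belonged to another gene for 42 of the 81 peaks (51.9%), against 27 of the 41 (65.9%). The differences between the 8 and the 17 genes were not tested.

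**Figure D5:**
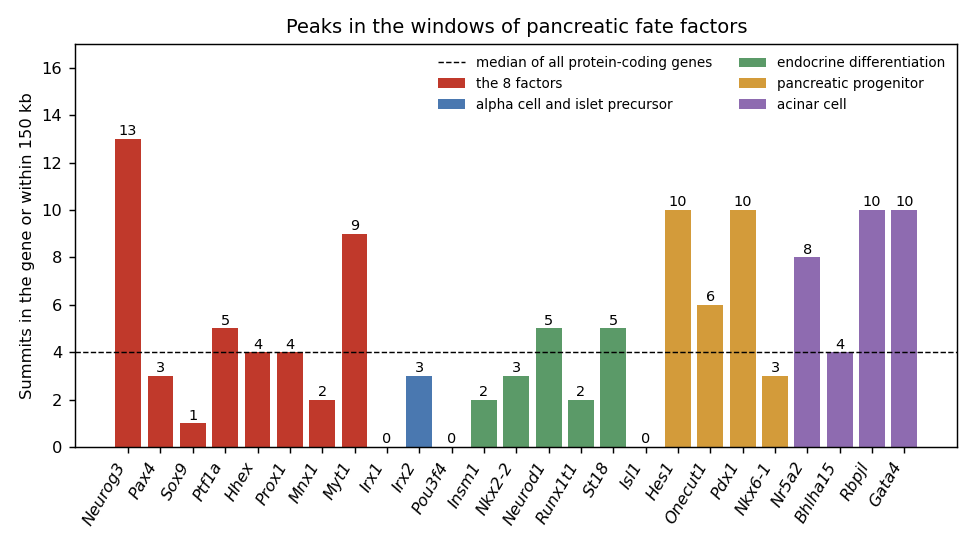
Number of summits in the gene or within 150 kb (y axis) for the 8 factors (red) and 17 other factors grouped by role. The dashed line is the median of all protein-coding genes (4). Neurog3 has the tallest bar, and Irx1, Pou3f4 and Isl1 have none.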

How the data were processed

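Anti-HA ChIP-seq was measured in 1 library of 3HA-Rfx6 transfected Min6b1 cells and 1 control library, sequenced as single-end reads of 50 bases. The submitters' processing notes name CASAVA 1.8.2, Bowtie, MACS 1.4.2 and mm9. Only the HA-Rfx6 peaks were used. The authors called peaks with MACS at a p-value cutoff of 1e-05, a fragment size of 234 bp and at most 1 read per position, with the control as background. For each peak they deposited the count of reads without normalization, the fold enrichment over background as a ratio, a score (the p-value as its log10 times minus 10) and, in percent, an FDR from exchanging ChIP and control. The control was shallower (3567375 against 33949757 reads kept), and entered through the calling alone.

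Summits were placed on NCBIM37 (mm9), where all peaks lay inside the chromosomes, and compared with GENCODE M1. Counts were set beside those of all protein-coding genes, and motifs beside all peaks and windows 1 kb to the right. No test was made. Exact 95% Poisson intervals of reads cover counting error only. Named genes were the 8, the genes holding or nearest to their peaks, and 17 other factors of the same network. Other genes of that list are not reported here. The genes and lists were chosen with earlier results of these data known. Alternatives were smaller peak sets, other distances and windows, and other forms of the motif. Scripts in Python 3.11.15 (scipy 1.17.1, pandas 2.3.3, numpy 2.4.6; figures with matplotlib 3.10.9) were tested on simulated data.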

Additional observations from a re-analysis of the deposited data

How the results depend on the processing

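Other peak sets lowered the counts. The FDR did not order the peaks by score: at most 1% was given to the 10 peaks with scores above 3100 alone, and its largest value, 25.29%, to the 77 peaks next in score. Of those 10 peaks, 0 lay in the windows of the 8 factors, so that the numbers of factors with a peak, with a summit in the gene and with a summit within 10 kb of a start, the number of other factors with a peak and the number of spaced X-boxes were all 0. With a fold enrichment of at least 10, 21 of 41 peaks (51.2%) remained, against 39.6% of all peaks, with a summit in 2 of the genes and within 10 kb of a start for 3. In the higher-scoring part of the list, 11654 peaks (50% of all), 25 of 41 (61.0%) remained. All 8 factors still had a peak in both of the latter sets. Counting only summits within 50 kb of the gene gave 19 peaks, and only those nearest to the factor's own start 14. The spaced X-box count of 4 became 1 in the 100 bp around the summit (2.44%, against 7.62% of all peaks). Other forms, which need not mark the same peaks, gave 2 (strict X-box), 20 (relaxed X-box) and 12 (the arm GTTGCC alone). A pair of at least 10 of 12 bases, chosen after seeing the data, gave 7. Without the distal Prox1 peak, also chosen after seeing the data, 40 peaks remained. The read ranks could not be recomputed with an FDR of at most 1%, since no peak was left.

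No paired analysis was possible because each condition is a lone library, and none was left out. The values describe 1 library of introduced Rfx6, and depth limits peaks of few reads most.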

Other observations

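The whole peak 675 bp before Exoc6, in the Hhex window, held the spaced X-box GTGACCGAGGGTCAC 371 bp from its summit, outside the 200 bp. The peak 31.5 kb before Neurog3 held another, GTGTCCTGGGGAC, 773 bp from its summit.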
